A study of Mus musculus with 29 samples.

Results

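TgS mice, which carry the human synaptic variant of acetylcholinesterase (AChE-S), were compared with their parent strain FVB/N in the prefrontal cortex after exposure to the neurotoxin MPTP. The comparison rests on 4 of the 29 arrays of the study, 2 labelled TgS and 2 labelled FVB/N, chosen by their labels for strain, region and treatment. Total RNA of dissected prefrontal cortex was hybridised to Affymetrix mouse expression arrays, 1 sample per array. MPTP was injected 4 times at 20 mg/kg, 2 h apart, to a cumulative dose of 80 mg/kg, and tissue was taken 4 days later from 6 exposed mice per strain. The TgS line is on the FVB/N background, and every one of the 4 arrays is from exposed animals. The study also holds mice with the human readthrough variant (TgR, AChE-R), unexposed mice of the 3 strains, called naive in the labels, and the caudate-putamen of the same strains. The sex and age of the mice, the number of mice behind an array, the promoter of the transgene and the number of founder lines do not appear in the labels. Nothing in the labels says that 2 arrays of a group came from separate animals. The p-values therefore measure only the spread within groups, estimated over all 29 arrays, which may be technical.

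Acetylcholinesterase hydrolyses acetylcholine and ends its action at the synapse. Alternative splicing at the end of the transcript gives the synaptic variant AChE-S, which assembles into membrane-anchored tetramers, and the readthrough variant AChE-R, a soluble monomer that is induced by stress. MPTP is oxidised by monoamine oxidase B, largely in astrocytes, to a metabolite that enters dopamine neurons through their transporter and inhibits mitochondrial complex I. The prefrontal cortex receives both dopamine fibres from the midbrain and cholinergic fibres from the basal forebrain.

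The 4 arrays resembled each other closely. Their median log2 signals lay between 7.76 and 7.78, and over 22626 transcripts (probe sets other than controls) the 2 arrays of a strain correlated at 0.997, against 0.996 between strains. The cortical projection neuron genes Neurod6 and Tbr1 were at 9.57 to 10.07 and 9.51 to 9.99 log2 units, against 5.12 to 8.37 and 7.03 to 8.91 in the caudate-putamen arrays. The 6 naive prefrontal arrays numbered 1 and 2 stood apart from the other 23 arrays, with Xist at 8.62 to 10.61 instead of 6.78 to 7.24 and the Y-linked Eif2s3y at 3.42 to 3.83 instead of 8.41 to 9.2. Of the 215 transcripts described next, 92 were called the same way there and 29 the opposite way. Ighm, at 8.07 and 8.04 in FVB/N against 9.93 and 9.69 in TgS, went with the labels, while Baiap2l1 went against them, at 8.38 and 8.06 in the libraries labelled FVB/N and 7.07 and 7.19 in those labelled TgS. Naive prefrontal values below are therefore those of replicates 3 and 4.

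After MPTP, 215 of the 22626 transcripts (0.950%) differed between TgS and FVB/N at an adjusted p under 0.05 (limma, Benjamini-Hochberg), and such transcripts are named called below. Of these, 100 were higher and 115 lower in TgS, and 1904 transcripts had an unadjusted p under 0.05. The size of the called differences ran from 0.28 to 4.48 log2 units with a median of 0.60, and 37 reached 2-fold. Counted with 1 probe set per gene, 125 of 12393 genes were called, 67 higher (0.541%) and 58 lower (0.468%). The 2 TgS arrays lay on one side of the 2 FVB/N arrays for all 215, as they did for 8031 of all 22626 transcripts. Without FVB/N array 1, FVB/N array 2 or TgS array 2 the count was 127, 122 or 114, and when naive replicates 1 to 4 were fitted as one group per strain it was 82 with an additive term for the 6 arrays that stood apart and 23 with no such term. TgR values after MPTP are set beside the others as a description, since a comparison of TgR with FVB/N would share the FVB/N arrays.

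Counted with the 1 probe set that stands for each gene, the strongest rise was that of Baiap2l1, an I-BAR protein that links membranes to actin. Its log2 signal was 5.56 and 5.58 in the FVB/N arrays, 8.33 and 8.24 in the TgS arrays, and 5.71 and 5.58 in the TgR arrays treated the same way. TgS was therefore higher by 2.72 ± 0.13 log2 units (standard error), or 6.57-fold, with a limma adjusted p of 2.285e-10. Ighm, the heavy chain constant region of immunoglobulin M, was at 7.88 and 7.98 in FVB/N against 10.28 and 10.01 in TgS and 7.99 and 8.07 in TgR, a 4.64-fold rise in TgS (limma adjusted p = 1.104e-09). Both TgS arrays stood above every FVB/N and TgR prefrontal array after MPTP for these genes. Smarcc1, a core SWI/SNF chromatin remodelling protein, rose by 1.29 ± 0.15 from 6.15 and 6.01 to 7.49 and 7.25. Rb1, the retinoblastoma tumour suppressor, rose 2.03-fold, from 8.9 and 8.76 to 9.89 and 9.81 (limma adjusted p = 2.578e-05). Mcm6, a subunit of the replicative helicase, was at 6.15 and 5.58 in FVB/N against 7.12 and 6.89 in TgS. Alg1, a mannosyltransferase of N-glycan assembly, rose by 0.85 ± 0.10, Dcbld2, a neuropilin-like membrane protein, by 1.00 ± 0.13, and Ttc8, a subunit of the BBSome of primary cilia, by 0.95 ± 0.12. Cth, which makes cysteine from cystathionine, rose by 0.84 ± 0.14 and lost its call without TgS array 1 (limma adjusted p = 0.056). Rasd1, a Ras-like protein induced by glucocorticoids, rose by 1.16 ± 0.26 and lost its call without any 1 of the 4 arrays, at adjusted p of 0.106 to 0.24.

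**Figure D1:**
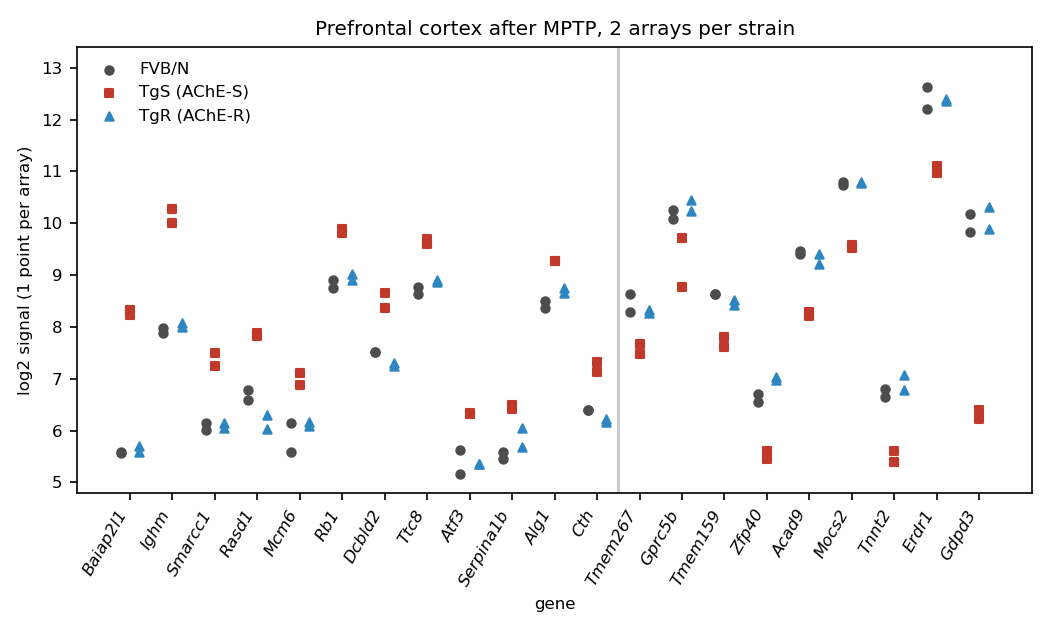
Log2 signal (y axis, 1 point per array) of 21 genes named in the text (x axis) in prefrontal cortex after MPTP, in 2 FVB/N, 2 TgS and 2 TgR arrays. Left of the line are genes higher in TgS and right of it genes lower in TgS; the TgS squares of Gdpd3 lie at 6.4 and 6.23, below the FVB/N and TgR points at 9.84 to 10.31.

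Among the lower genes, counted the same way, Gdpd3, a glycerophosphodiester phosphodiesterase family member that acts on lysophospholipids, stood first. It was at 10.17 and 9.84 in FVB/N, 9.89 and 10.31 in TgR, and 6.4 and 6.23 in TgS. The difference of -3.69 ± 0.42 log2 units makes TgS 12.9-fold lower (limma adjusted p = 4.631e-05). Mocs2, which encodes molybdopterin synthase of molybdenum cofactor synthesis, was at 10.74 and 10.79 in FVB/N against 9.59 and 9.52 in TgS. Tnnt2, cardiac troponin T, fell by 1.23 ± 0.14. For Acad9, an assembly factor of mitochondrial complex I, the brighter probe set fell by 1.18 ± 0.13 and the other was at 0.44, which was not called. For Erdr1 the probe set read 12.62 and 12.2 in FVB/N against 11.11 and 10.97 in TgS. Ctns, the lysosomal cystine transporter, fell by 0.75 ± 0.10, 1 of 2 probe sets of Chmp1b, an ESCRT-III component, by 0.72 ± 0.08, and the zinc finger gene Zfp40 by 1.09 ± 0.14. Gprc5b, an orphan receptor, was at 10.25 and 10.08 in FVB/N but 8.77 and 9.71 in TgS, so that its TgS arrays lay far apart. Its fall of 0.93 ± 0.19 lost the call without TgS array 1, where it was -0.46 (limma adjusted p = 0.223), and without FVB/N array 1 or array 2, at -0.84 (0.189) and -1.01 (0.074). The TgR values of Mocs2, 10.77 and 10.79, lay on the FVB/N values.

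Most of these genes separated the strains in other arrays too. Of the 215 called transcripts, 123 (57.2%) were called in the same direction in the naive prefrontal cortex, where 3.04% of all transcripts were called, and these made up 17.9% of the 688 called there. In the naive caudate-putamen 125 (58.1%) were called the same way, beside 6.32% of all transcripts, and they were 8.75% of its 1429. In the caudate-putamen after MPTP 124 (57.7%) were called the same way, beside 2.82% of all, and they were 19.5% of its 637. Calls in the opposite direction numbered 1, 0 and 1 in these 3 comparisons, which share no array with the 4 arrays described here. Whether the 2 regions came from the same mice is not given in the sources used here. In all 3 comparisons 85 of the 215 were called the same way, 37 higher and 48 lower.

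**Figure D2:**
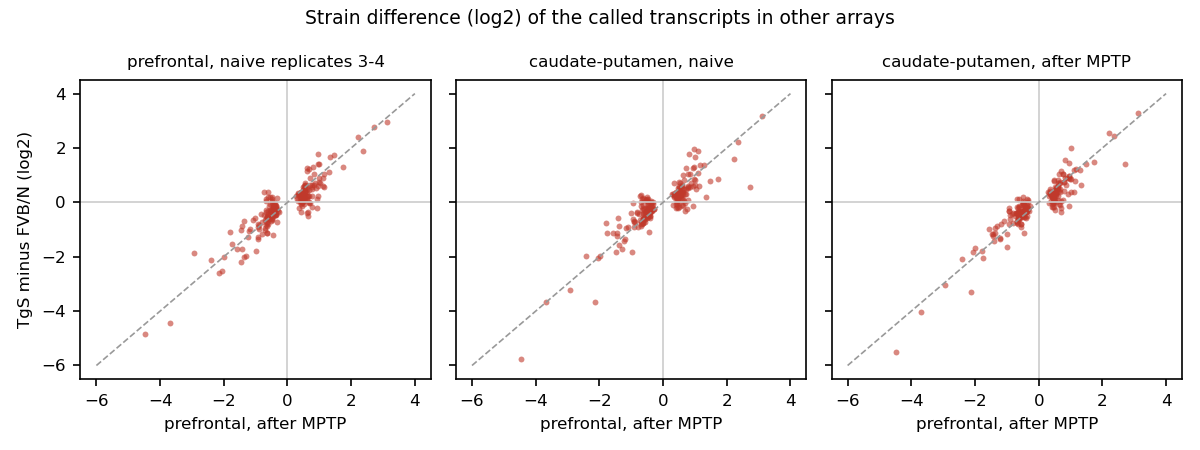
TgS minus FVB/N difference (log2) of the 215 transcripts called in prefrontal cortex after MPTP (x axis) against the same difference (log2, y axis) in naive prefrontal replicates 3 and 4, naive caudate-putamen and caudate-putamen after MPTP, with 1 point per transcript and a dashed line of equal values. Same-sign points number 191, 185 and 194 of 215 in the 3 panels.

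Gdpd3 showed the pattern at full range. Its TgS values were 5.52 and 5.34 in the naive prefrontal cortex, 6.08 and 6.4 in the naive caudate-putamen and 6.2 and 6.36 in the caudate-putamen after MPTP. The FVB/N values in the same order were 9.98 and 9.76, 9.96 and 9.88, and 10.37 and 10.24, so that no FVB/N array came near a TgS array. Ighm was higher in TgS by 2.39, 1.60 and 2.55 log2 units in those 3 settings, and Mocs2 lower by differences of -1.07, -1.33 and -1.30. Smarcc1 differed by 1.11, 1.39 and 1.21, the brighter probe set of Acad9 by -0.97, -0.96 and -0.79, and Rb1 by 0.73, 0.48 and 0.86, each called (limma). The probe set that stands for Baiap2l1 was called in each setting as well, but its size ran from 2.78 in the naive prefrontal cortex down to 0.58 in the naive caudate-putamen. The other probe set of Baiap2l1 was called in the naive prefrontal cortex (1.655) and the caudate-putamen after MPTP (0.65). In the naive caudate-putamen it was at 0.205 and not called (limma).

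For many genes only 1 of several probe sets was called, which does not show that the others were unchanged. Apart from 31 without a single gene symbol, the called probe sets belong to 169 genes, and 85 of these genes have several probe sets on the array. In 71 of the 85 only 1 probe set was called, in 14 more than 1, and in 9 all were called the same way. The genes singled out in the next 2 paragraphs were chosen after their values were seen.

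Phgdh, the first enzyme of serine synthesis, had the largest of the called differences. A single probe set of it read 9.74 and 9.85 in FVB/N against 5.19 and 5.45 in TgS and 9.88 and 10.06 in TgR, a difference of -4.48 ± 0.50 (limma adjusted p = 3.881e-05). The other 3 probe sets of Phgdh differed by -0.24, -0.23 and -0.21 and were not called. Galc, the lysosomal galactocerebrosidase, showed the reverse: 1 probe set was at 5.4 and 5.37 in FVB/N against 8.59 and 8.4 in TgS, while its other 2 differed by -0.53 and 0.02. The same split was seen in Pnpt1, the mitochondrial polynucleotide phosphorylase, with -2.93 in 1 probe set and 0.35 in the other. The syntaxin Stx3 had 2.36 against -0.43 and -0.22, and the signalling inhibitor Spry2 had -1.995 (6.28 and 6.65 in TgS, 8.41 and 8.51 in FVB/N) against -0.17. In the nuclear long noncoding RNA Malat1 1 of 5 probe sets was called, at 1.74, and the other 4 lay between -0.15 and 0.11. Of the 3 probe sets of the complex I subunit Ndufv1, 1 was called at 0.99, with 0.06 and 0.16 in the others. In Acad9 the second probe set, at 0.44 after MPTP, was called higher in TgS in the other 3 comparisons, at 0.78, 0.92 and 0.99, while the first was called lower in all of them. The uncalled probe sets of Mocs2, Smarcc1, Mcm6, Gprc5b and Chmp1b were at -0.29, 0.47, 0.67, 0.23 and 0.12. In Uchl5, a proteasome-associated deubiquitinase, both probe sets were called, at -0.46 and 0.96, in opposite directions. For these genes the probe sets gave different values. Values given for them elsewhere in the text are those of 1 probe set and are not taken as the level of the gene.

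Other genes had probe sets that moved together. Both of Tnnt2 fell, by 2.41 and 1.23 log2 units, both of Dbp fell, and both of Baiap2l1 rose, by 2.72 and 1.335. Ighm did so only in part: of its 11 probe sets 3 were called, all higher in TgS, at 0.61, 1.48 and 2.22. Its others were not called, and the values given for Ighm elsewhere in the text are those of the probe set at 2.22. The probe sets of Ighm cover related immunoglobulin sequences, and Serpina1b and Serpina1c are near-identical paralogs, so the gene behind a signal is uncertain for both.

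**Figure D3:**
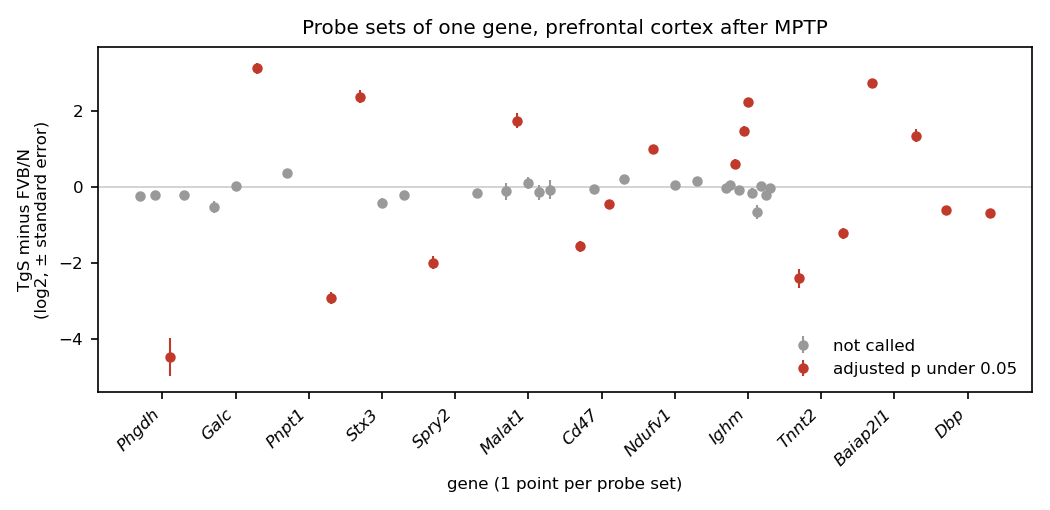
TgS minus FVB/N difference (log2, y axis) in prefrontal cortex after MPTP for every probe set of 12 genes (x axis), 1 point per probe set with its standard error. Red points are called at an adjusted p under 0.05 and grey points are not; in Phgdh 1 probe set is at -4.48 and the other 3 lie between -0.24 and -0.21.

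The called genes also tended to sit beside each other in the genome. With genes placed in RefSeq order, 35 of the 169 genes with a called probe set (20.7%) had another called gene among the 2 measured genes on either side, against 610 of all 12369 placed genes (4.93%). This is a description with no test. The 35 genes formed 17 neighbourhoods, and in 1 of them the zinc finger genes Zfp944, Zfp758 and Zfp40 were all lower in TgS, by differences of -0.59, -0.83 and -1.09. Ighm lay beside Zfp386 (0.48), Acad9 beside Anxa5 (-0.64), an annexin, and Smarcc1 beside the helicase gene Dhx30 (0.79). Aldh1a1 and its paralog Aldh1a7, aldehyde dehydrogenases, were higher by 0.49 and 0.56. The near-identical paralogs Serpina1b and Serpina1c are counted among the 35 as well, although the gene behind their signal is uncertain. Neighbours did not always move the same way: Baiap2l1 was higher while the pentraxin gene Nptx2 had a called probe set at -0.50, and 23 of the 35 had a called neighbour with their own direction.

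After MPTP, 50 of the 215 called transcripts (26 higher, 24 lower) were called in none of the 3 comparisons on other arrays. For 12 of these 50 the difference from the naive prefrontal cortex was itself called (limma, an interaction of strain and treatment), so for most of the 50 a change with MPTP was not shown. Over all 215, that difference was called for 20, beside 0.698% of all transcripts. The difference from the caudate-putamen after MPTP was called for 8 of the 215, beside 0.150% of all transcripts. The 215 and the 50 were selected with the same prefrontal MPTP arrays that enter both differences. That selection can raise the counts of 12, 20 and 8, so they are not independent evidence of a change.

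Dbp and Nfil3, of the circadian output pathway, were among the 50. Dbp encodes a PAR bZIP activator that binds D-box elements, and Nfil3 a repressor that competes for the same elements. Dbp was at 11.03 and 11.23 in FVB/N against 10.49 and 10.39 in TgS and 11.57 and 11.44 in TgR, so that it fell by 0.69 ± 0.09 in TgS (limma adjusted p = 3.229e-04). In the naive prefrontal cortex FVB/N was at 11.2 and 11.37 and TgS at 11.31 and 11.49, a difference of 0.12 that was not called. Nfil3 went the other way, at 6.36 and 6.46 in FVB/N against 7.13 and 6.89 in TgS and 5.83 and 6.01 in TgR, a rise of 0.60 ± 0.12 (limma adjusted p = 0.012). Naive TgS arrays, at 5.94 and 5.9, were below naive FVB/N at 6.35 and 6.24. The strain difference changed between naive and MPTP arrays by -0.81 ± 0.13 for Dbp (limma adjusted p = 8.175e-03) and by 0.98 ± 0.16 for Nfil3 (8.807e-03). Of the 16 measured genes of the clock list these were the only 2 called, and the list's median was -0.03 beside 0.01 over all genes. The clock activator Arntl and the repressor Nr1d2 were at differences of 0.23 and -0.18 and were not called after MPTP. The windows of 250 bases before the start of Dbp, Nfil3, Arntl and Nr1d2 held no D-box (TTATGTAA) and no E-box (CACGTG). Most promoter windows of this length hold neither: 0.819% have the first and 6.02% the second. In naive arrays Arntl was called lower in TgS, at -0.28, and its change of 0.51 ± 0.09 between the conditions was called (limma adjusted p = 0.017) and lost without FVB/N array 2, TgS array 1, naive FVB/N replicate 3 or naive TgS replicate 3, at 0.07 to 0.11. In naive replicates 1 and 2, which stood apart, TgS differed by -0.69 for Dbp, 1.07 for Nfil3 and 0.23 for Arntl, each called (limma). Their directions were those seen after MPTP. The hour of dissection is not given in the sources used here. Nfil3 was not called without FVB/N array 1, FVB/N array 2 or TgS array 1, at 0.55, 0.65 and 0.48 (limma adjusted p of 0.131, 0.054 and 0.16). Both interactions were lost without naive FVB/N replicate 3 (limma adjusted p = 0.078 for each), and that of Nfil3 also without TgS array 1 (0.058).

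Atf3, a transcription factor induced by cell stress and axon injury, was at 5.63 and 5.16 in FVB/N against 6.32 and 6.35 in TgS and 5.36 and 5.35 in TgR after MPTP. The rise of 0.94 ± 0.14 in TgS (limma adjusted p = 6.161e-04) had no counterpart in naive prefrontal replicates 3 and 4. There FVB/N was at 5.56 and 5.57 and TgS at 5.21 and 5.5. In naive replicates 1 and 2, which stood apart, FVB/N was at 5.81 and 5.99 and TgS at 6.52 and 6.5. That difference of 0.61 was called (limma). In the caudate-putamen after MPTP FVB/N read 5.71 and 5.91 and TgS 5.6 and 5.73. Both differences of the difference were called for Atf3, at 1.15 ± 0.19 from naive and 1.09 ± 0.19 from the caudate-putamen (limma adjusted p = 8.274e-03 and 0.03). The first was lost without naive FVB/N replicate 3 or naive TgS replicate 3 (0.062 and 0.058), and the second without any 1 of 6 of its 8 arrays, at 0.082 to 0.172. Of the 23 measured immediate early genes Atf3 was the only one called, while 19 had a positive difference and the median was 0.28. Fosb, a partner of Jun in AP-1, was at 7.88 and 8.21 in FVB/N against 8.78 and 8.48 in TgS, without overlap, and was not called (limma adjusted p = 0.319). For Klf4, a zinc finger factor, the probe set used for the gene differed by 0.65 (0.291) and its other probe set by 0.77, which was called (9.188e-03). Nptx2, a neuronal pentraxin of the same list, went the other way, with its representative probe set at -0.31 (0.446) and its other at -0.50, which was called (6.784e-03).

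The interferon-stimulated genes Ifit3 and Bst2 fell in TgS. Type I interferon drives these genes through the factor ISGF3, which binds the interferon-stimulated response element (ISRE), searched here on both strands as 2 GAAA runs with any 2 bases between them. Of the 24 measured genes of this list only Ifit3, an antiviral RNA-sensing family member, and Bst2, the virus-tethering protein tetherin, were called, both lower. The list's median was -0.08, and 3 of its 24 differences were positive. In naive prefrontal cortex 6 of the 24 were already called lower, beside 2.81% of all genes, H2-K1 among them at -0.44. The list's median there was -0.22, with again 3 positive. The windows of 250 bases before the start of the 2 called genes follow (RefSeq, GRCm38.p6), with ISRE matches in capitals, to show where the element lies. Matches are not particular to these 2 genes: of the 23 list members with a window 10 hold one, B2m among them, which was not called. Ifit3 lies on the plus strand of chr19:34583279-34583528, with matches on the opposite strand that start 156 and 122 bases before the gene. Bst2 lies on the minus strand of chr8:71537473-71537722, with 2 overlapping matches 130 and 124 bases before the gene.
Ifit3: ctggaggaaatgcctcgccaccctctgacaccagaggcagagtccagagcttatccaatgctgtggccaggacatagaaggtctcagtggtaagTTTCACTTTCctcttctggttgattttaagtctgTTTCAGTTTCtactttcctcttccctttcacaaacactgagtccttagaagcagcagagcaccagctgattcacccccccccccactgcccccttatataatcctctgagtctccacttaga
Bst2: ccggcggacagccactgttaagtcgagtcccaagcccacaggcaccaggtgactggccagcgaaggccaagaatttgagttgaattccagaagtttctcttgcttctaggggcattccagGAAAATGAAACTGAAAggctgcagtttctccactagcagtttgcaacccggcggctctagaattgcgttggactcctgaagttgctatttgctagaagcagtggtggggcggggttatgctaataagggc
Over 32851 promoter windows of this length 2.98% hold such a match, and a match is no evidence of binding. Ifit3 was at 7.13 and 6.96 in FVB/N against 6.45 and 6.54 in TgS and 7.29 and 7.3 in TgR. TgS was lower by a difference of -0.55 ± 0.08 (limma adjusted p = 4.841e-04). It was lower in the caudate-putamen after MPTP as well, at 6.37 and 6.27 against 7.14 and 7.06 (-0.78, adjusted p = 8.374e-06), but was not called in naive prefrontal cortex, where all 4 arrays lay between 7.23 and 7.32, nor in naive caudate-putamen, at 7.33 and 7.25 against 7.19 and 7.21. The difference from naive prefrontal cortex was -0.50 ± 0.11 (limma adjusted p = 0.044), and it was lost without 7 of its 8 arrays in turn. The list did not follow Ifit3 here. Over its 24 genes the difference from naive had a median of 0.145, beside 0.02 over all genes, and 16 were positive. Besides Ifit3, 1 other member was called, with a higher TgS minus FVB/N value after MPTP. Bst2 read 6.99 and 6.78 in FVB/N, 6.52 in both TgS arrays and 6.62 and 6.74 in TgR. Its fall of 0.37 ± 0.08 was lost without FVB/N array 1 and without either TgS array (limma adjusted p = 0.316, 0.102 and 0.133). B2m and H2-K1, the light chain and a heavy chain of MHC class I, differed by -0.24 and -0.19 and were not called.

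The alpha-1-antitrypsin genes and the interleukin-1 receptor rose in TgS. The paralogs Serpina1b and Serpina1c were at 5.58 and 5.45 and at 5.6 and 5.49 in FVB/N, and at 6.41 and 6.49 and at 6.22 and 6.3 in TgS. Rises of 0.94 ± 0.19 and 0.72 ± 0.15 were called (limma adjusted p = 0.013 and 0.024), and both calls were lost without any 1 of the 4 arrays. The other probe set of Serpina1b was called as well, at 1.105 (limma adjusted p = 1.762e-03). In naive caudate-putamen the first probe set of Serpina1b was also called higher in TgS, at 1.26. It was not called in naive prefrontal cortex (0.125) or the caudate-putamen after MPTP (0.29). Il1r1, the signalling receptor of interleukin-1, rose by 0.41 ± 0.09 (limma adjusted p = 0.046), was the only one of 16 acute-phase genes called, and was likewise lost without any 1 array (0.081 to 0.368). Lcn2, lipocalin 2, an acute-phase protein of reactive astrocytes, was at 10.27 and 9.21 in FVB/N against 9.74 and 10 in TgS after MPTP, with overlap, against 4.64 to 5.08 in the naive arrays of both strains. In TgR after MPTP it read 5.67 and 6.57. Gsr, glutathione reductase, was the only one of 22 metallothionein and antioxidant genes called, at 8.36 and 8.34 in FVB/N against 8.81 and 8.68 in TgS. Its call after MPTP was lost without either FVB/N array or TgS array 1. The same probe set, 1 of 2 for Gsr, was called higher in TgS without MPTP too. It differed by 0.32 in naive prefrontal cortex and 0.305 in naive caudate-putamen (limma). In the caudate-putamen after MPTP it was at 0.26 and not called.

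Setting the strain difference after MPTP against that of naive prefrontal cortex, 158 transcripts were called (0.698%; limma interaction), 122 with a higher and 36 with a lower TgS minus FVB/N value after MPTP. Counted by gene, 89 of the 106 called genes had a higher value (0.718% of all genes). With naive replicates 1 to 4 fitted as one group per strain and an additive term for the 6 arrays that stood apart, no transcript was called (limma; 2815 at an unadjusted p under 0.05). Of the gene lists examined, those of vessels and meninges held the most called members. Of 21 vessel and mural cell genes 6 were called, all higher, and of 15 meningeal and fibroblast genes 5, all higher. Neither list had a called member in the comparison after MPTP itself (limma, with 2 and 7 at an unadjusted p under 0.05). In naive prefrontal cortex, where 2.81% of genes were called lower, 10 of the 21 and 5 of the 15 were. The mean log2 signal of the vessel list was 8.20 and 7.99 in naive FVB/N, 7.60 and 7.59 in naive TgS, 8.19 and 8.18 in FVB/N after MPTP and 8.29 in both TgS arrays after MPTP, so that the naive TgS arrays were the low ones. In bulk tissue fewer cells of a type and less RNA per cell cannot be told apart.

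**Figure D4:**
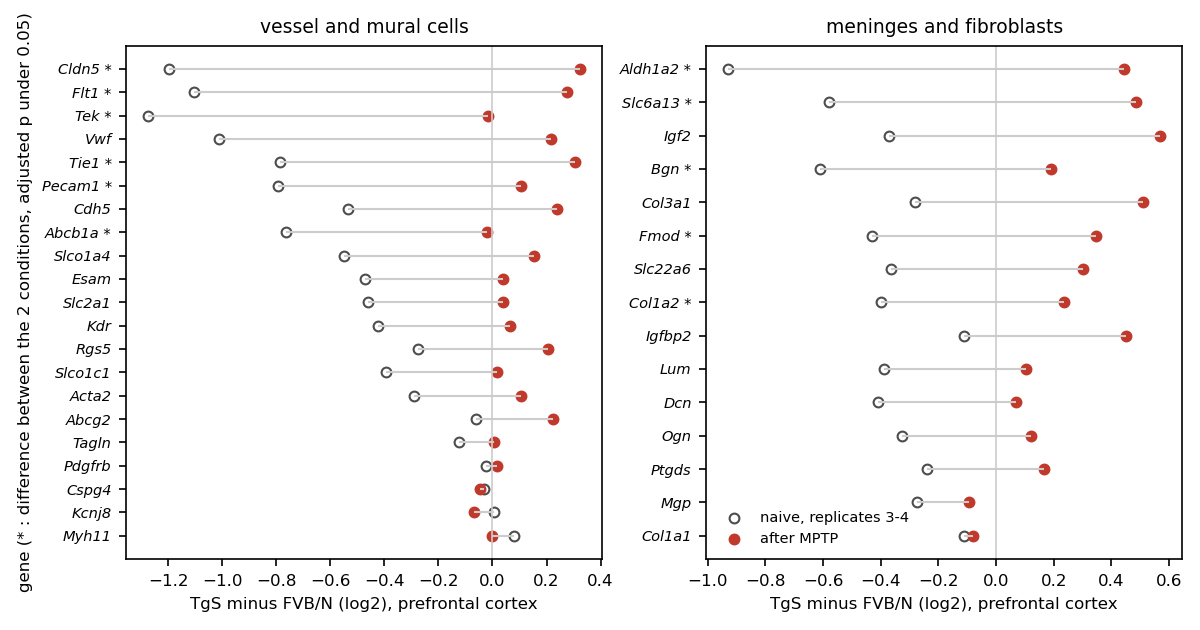
TgS minus FVB/N difference (log2, x axis) in prefrontal cortex of 21 vessel and mural cell genes and 15 meningeal and fibroblast genes (y axis), open circles for naive replicates 3 and 4 and filled circles after MPTP; a star marks a called difference between the 2 conditions. Most open circles lie left of 0 and most filled circles near or right of it, as for Cldn5 at -1.20 and 0.33.

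Cldn5, the claudin of the blood-brain barrier, was at 10.13 and 9.56 in naive FVB/N and 8.73 and 8.57 in naive TgS, and at 9.68 and 9.67 in FVB/N against 9.93 and 10.07 in TgS after MPTP. The strain difference moved from -1.20 to 0.33, a change of 1.52 ± 0.22 (limma adjusted p = 3.592e-03). Flt1, a receptor of vascular endothelial growth factor, changed by 1.38 ± 0.21 and Tie1, an endothelial receptor kinase, by 1.09 ± 0.16. The other 2 probe sets of Flt1 changed by 0.16 and -0.22 and were not called. Cxcl12, a chemokine of endothelium and meninges, was at 9.97 and 9.6 in naive FVB/N, 8.2 and 8.08 in naive TgS, 9.04 and 9.33 in FVB/N against 9.38 and 9.04 in TgS after MPTP, a change of 1.67 ± 0.28, against 0.17 in its other probe set, which was not called. The call was lost without TgS array 1 (limma adjusted p = 0.054) or naive FVB/N replicate 3 (0.078). Among meningeal genes Aldh1a2, which makes retinoic acid, changed by 1.38 ± 0.22 and Slc6a13, a GABA and taurine transporter, by 1.07 ± 0.18. The call of Slc6a13 was lost without FVB/N array 2 or naive TgS replicate 3 (0.056 for each). Slc6a20a, a proline transporter, went from 9.06 and 8.88 against 7.58 and 7.71 in naive FVB/N and TgS to 9.02 and 8.7 against 9.34 and 9.75 after MPTP, a change of 2.01 ± 0.24 (limma adjusted p = 1.419e-03). Phldb2, a cortical microtubule anchoring protein, changed by 1.75 ± 0.23.

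Zic1, a zinc finger factor of meninges and olfactory bulb, and Fabp7, a fatty acid binding protein of radial glia and astrocytes, changed by 1.93 ± 0.40 and 1.91 ± 0.40 (limma adjusted p = 0.033 and 0.034). Klf4 changed by 1.70 ± 0.31 (0.017). All 3 lost the call when single arrays were left out, Zic1 and Fabp7 without 6 of 8 and Klf4 without 5 of 8, at 0.07 to 0.169, 0.084 to 0.202 and 0.059 to 0.095. Without naive FVB/N replicate 3, naive TgS replicate 3 or naive TgS replicate 4, the count of 158 was 21, 27 or 60, with 3 vessel genes called each time and 2, 1 or 3 meningeal genes, and without naive FVB/N replicate 4 it was 210, with 9 and 3. Without FVB/N array 1, FVB/N array 2, TgS array 1 or TgS array 2 it was 89, 54, 48 or 56, with 4, 4, 3 or 4 vessel genes and 5, 1, 4 or 2 meningeal genes. With the naive replicates 1 and 2, where some genes go against the labels, in place of 3 and 4, 2 vessel and 3 meningeal genes were called, and Flt1 turned to -0.59. The arrays after MPTP also differed from naive replicates 3 and 4 in control transcripts, bioB at 7.32 to 7.76 against 6.68 to 6.97 and dap at 7.15 to 7.48 against 6.35 to 6.54, so treatment and array processing cannot be told apart, although each strain difference lies within one set.

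Glo1, the glyoxalase that clears methylglyoxal, moved the other way. It was at 10.23 and 10.43 in naive FVB/N and 11.82 and 11.83 in naive TgS, a called difference of 1.495. After MPTP FVB/N was at 10.43 and 10.38 and TgS at 10.36 and 10.84, so that 1 TgS array lay at the FVB/N level and the other above it. In the caudate-putamen after MPTP the TgS arrays, at 10.48 and 11.12, were split in the same way around FVB/N at 10.49 and 10.3. The change from naive was -1.30 ± 0.29 (limma adjusted p = 0.047), and it was lost without any 1 of 7 of the 8 arrays, at 0.053 to 0.241.

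Against the caudate-putamen after MPTP, the strain difference of the prefrontal cortex differed for 34 transcripts (0.150%; limma interaction), 17 each way. Of the 20 called genes 15 had a higher value in the prefrontal cortex (0.121% of all genes). Baiap2l1 was one of them, with a TgS excess of 2.72 in the prefrontal cortex and 1.41 in the caudate-putamen, a change of 1.31 ± 0.18 (limma adjusted p = 2.574e-03). Its other probe set changed by 0.685 and was not called (limma adjusted p = 0.274). For Gal and Calcr the TgS difference lay in the caudate-putamen, and in naive caudate-putamen it was called in the opposite direction, at 0.68 and 0.79. The neuropeptide Gal, galanin, was at 7.31 and 7.21 in FVB/N against 7.39 and 7.46 in TgS in the prefrontal cortex, but 9.16 and 9.11 against 7.99 and 8.14 in the caudate-putamen (change 1.24 ± 0.15, limma adjusted p = 1.708e-03). Calcr, the calcitonin receptor, stayed at 4.44 to 4.67 in all 4 prefrontal arrays and was 7.36 and 7.59 in FVB/N against 6.45 and 5.96 in TgS in the caudate-putamen. Its change of 1.29 ± 0.21 was lost without FVB/N array 2, TgS array 1, or caudate-putamen FVB/N array 2 or TgS array 2 (limma adjusted p = 0.075 to 0.133). The matrix proteoglycan gene Fmod, fibromodulin, changed by 1.14 ± 0.15 and Aldh1a2 by 1.14 ± 0.22, the latter lost without any 1 of 6 arrays (0.075 to 0.232). Among the other probe sets of Fmod a change of 0.795 was called, and changes of 0.805, 0.885 and 0.615 were not (limma). Tissue markers also differed between the strains in the caudate-putamen. After MPTP 4 of the 15 meningeal genes were called lower in TgS there, with a median of -0.39 and none positive. Fmod and Aldh1a2 are themselves among these 4, so the list is not independent of them. In naive caudate-putamen all 15 were positive. Of 17 cortical glutamatergic genes 7 were called higher in the caudate-putamen after MPTP. Over all 12393 genes 179 were called higher and 173 lower in that comparison (limma). Neurod6 read 6.82 and 5.12 there in FVB/N against 7.39 and 7.49 in TgS. The part of these markers in the region differences was not tested. Lama3, a laminin chain of epithelial basement membranes, rose in the prefrontal cortex of TgS from 6.29 and 6.23 to 6.88 and 7.02, while in the caudate-putamen TgS was lower, at 6.68 and 6.59 against 6.93 and 7.08 (change 1.06 ± 0.14). Leaving out single arrays gave 6 to 41 called transcripts in this comparison, fewest without caudate-putamen TgS array 2, then 8 without TgS array 1 or caudate-putamen FVB/N array 2, 12 and 15 without FVB/N array 1 or 2, 15 without caudate-putamen TgS array 1 and 17 without TgS array 2.

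The genes the transgene and the toxin act through were not called. Ache read 9.03 and 9.17 in FVB/N against 9.4 and 9.13 in TgS and 9.21 and 9.28 in TgR, a difference of 0.17 ± 0.12 between TgS and FVB/N. The probe set was designed on the mouse gene, and whether it reads the human transgene is not given in the sources used here, so it checks nothing about the transgene. None of 16 measured cholinergic synapse genes was called (limma, 2 at an unadjusted p under 0.05), with a median of 0.05. Butyrylcholinesterase, Bche, differed by -0.07, the vesicular acetylcholine transporter Slc18a3 by -0.15, and the muscarinic receptors Chrm4 and Chrm3 by 0.30 and -0.37. Of 12 dopamine and monoamine genes none was called (2 unadjusted) and the median was 0.04. Slc6a3, the dopamine transporter, was at 5.78 and 5.41 in FVB/N and 5.92 in both TgS arrays. None of 33 complex I genes was called (0 unadjusted; median -0.05), nor any of 32 proteasome genes (3 unadjusted; -0.05), 32 splicing factors (2; 0), 24 heat shock chaperones (4; -0.04), 19 glucocorticoid response genes (1; 0.05) and 19 glutamate and GABA receptor genes (0; 0.04), each list in the 1 probe set per gene used for it.

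Markers of brain cells gave no called gene, with some lists at uneven levels between arrays. None was called among 17 cortical glutamatergic (limma; 0 at an unadjusted p under 0.05), 17 GABA interneuron (6), 17 microglial (2), 19 astrocyte (1), 13 oligodendrocyte (0), 7 oligodendrocyte precursor (2), 12 striatal (1), 14 thalamic and hypothalamic (1), 10 choroid plexus (1) and 3 red blood cell (1) genes. Gfap, the astrocyte intermediate filament, was at 10.39 and 9.94 in FVB/N against 9.72 and 9.69 in TgS (difference -0.46, limma adjusted p = 0.398), and Aif1, a microglial calcium-binding protein, differed by -0.28. The erythroid gene Alas2 was at 7.86 and 8 in FVB/N against 6.72 and 6.59 in TgS and was not called (0.12). Ighm was the only one of 16 lymphocyte and neutrophil genes called.

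Olfactory bulb markers varied most among the marker lists plotted here. Their mean was 8.18 and 7.04 in FVB/N against 8.32 and 8.59 in TgS and 7.57 and 8.70 in TgR, with a median difference of 0.84, 9 of 11 differences positive and none called (limma; 7 at an unadjusted p under 0.05). Cdhr1, a photoreceptor and mitral cell cadherin, read 9.51 and 6.98 in FVB/N against 9.76 and 10.25 in TgS. Doc2g, a tufted and mitral cell gene, read 8.39 and 6.69 against 9.08 and 9.55, and Th, tyrosine hydroxylase, which is made by bulb interneurons as well as dopamine neurons, read 8.64 and 6.94 against 8.95 and 9.19. FVB/N array 2 was the low one for these 3 genes. Without FVB/N array 1, which leaves that array to stand for FVB/N, Doc2g and Cdhr1 were called at 2.63 and 3.03 (limma adjusted p = 0.04 and 0.026). In naive prefrontal cortex the list's mean was 7.89 and 7.82 in FVB/N against 7.43 and 6.91 in TgS. The meningeal list was likewise higher in TgS after MPTP and lower in TgS in naive arrays, at 8.32 and 8.12 in FVB/N against 8.44 and 8.51 in TgS after MPTP and at 8.21 and 8.30 against 7.85 and 7.88 in naive arrays. The part of these levels in the called differences of Zic1, Fabp7 and the meningeal genes was not tested.

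**Figure D5:**
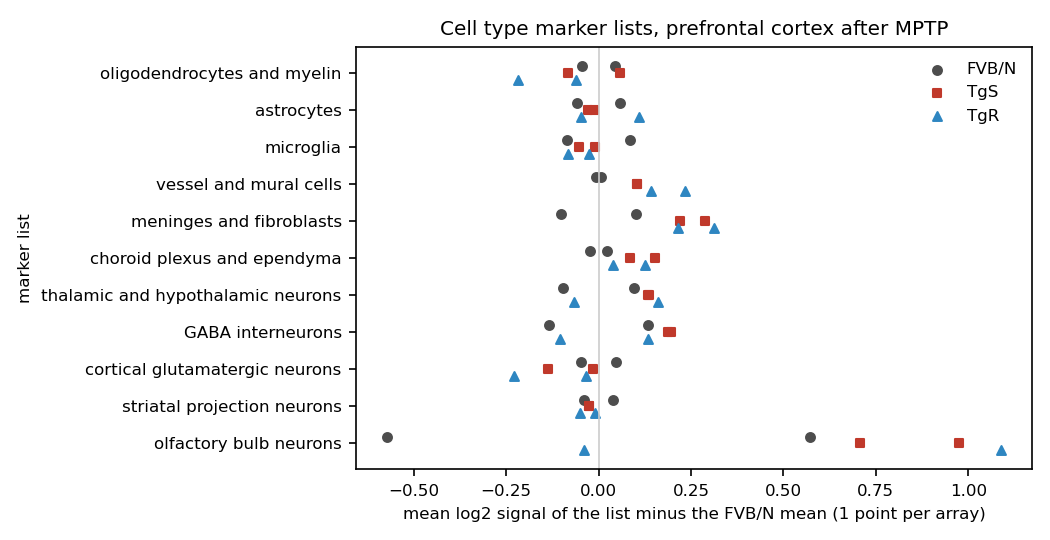
Mean log2 signal of 11 cell type marker lists (y axis) in each prefrontal array after MPTP, shown as the difference from the mean of the 2 FVB/N arrays (x axis, log2), with 1 point per array and 2 arrays per strain. Most lists stay near 0, and the olfactory bulb list spreads from 7.04 to 8.70 in mean signal over the 6 arrays.

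A list of 12 transcripts that an earlier examination of these arrays had named for the AChE-S line gave 3 higher and 5 lower called members. The list was chosen on these samples and is not independent evidence of its direction.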

How the data were processed

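The deposited values are log2 probe-set signals, given by the authors to 2 decimals. RMA, Affymetrix Power Tools and Affymetrix Expression Console are the tools named in the submitters' processing notes (versions not given in the sources used here). Signal over background cannot be read from them, and the number of arrays limits the precision. Of 22690 probe sets, 64 controls were left out of tests. Among the 22626 others 20380 have 1 gene symbol in the platform annotation, 691 several and 1555 none, giving 12393 genes with symbols updated through RefSeq (GRCm38.p6). Where a gene has several probe sets, the one with the highest mean signal over all arrays stands for it.

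One limma fit (version 3.58.1, R 4.3.3) covered all 29 arrays with 15 means (12 groups, naive prefrontal replicates 1 and 2 kept apart from 3 and 4) and 14 residual degrees of freedom. An additive term for the array set was not used as the base because earlier results showed strains to differ between those sets. P-values were adjusted by Benjamini-Hochberg over all transcripts. Differences of differences are contrasts of the same fit; neighbours are genes in RefSeq order. The procedure was tested on simulated data. Members, comparisons and gene lists were chosen with earlier results of these data known. Named genes are the 15 largest called rises and falls with arrays apart, up to 4 members per list, the leading interactions, genes called in all 4 comparisons and a fixed set (Ache, Bche, Slc18a3, Th, Gfap, Lcn2), of which the text uses part. Alternatives changed the array set term, the arrays fitted, the normalization, the filter, the variance model, the threshold and the replicate block, and left out single arrays.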

Additional observations from a re-analysis of the deposited data

Results flagged for a closer look

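The strain difference was tested for a change between naive and MPTP arrays of the prefrontal cortex and for a difference from the caudate-putamen after MPTP, by interaction contrasts of the limma fit, with 158 and 34 transcripts called. Relative to naive prefrontal cortex it was higher by 2.01 log2 units for Slc6a20a, 1.93 for Zic1, 1.91 for Fabp7, 1.75 for Phldb2, 1.70 for Klf4, 1.67 for Cxcl12, 1.52 for Cldn5, 1.38 for Flt1, 1.38 for Aldh1a2, 1.15 for Atf3, 1.09 for Tie1, 1.07 for Slc6a13, 0.98 for Nfil3 and 0.51 for Arntl. It was at -1.30 for Glo1, -0.81 for Dbp and -0.50 for Ifit3. Relative to the caudate-putamen it was higher by 1.31 for Baiap2l1, 1.29 for Calcr, 1.24 for Gal, 1.14 for Fmod, 1.14 for Aldh1a2, 1.09 for Atf3 and 1.06 for Lama3.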

How the results depend on the processing

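The count of 215 called transcripts stayed within 1.5 times under 8 alternatives and fell to 82 with an additive term for the array set, 23 with no such term, 101 with only the arrays of the groups compared (fewer degrees of freedom) and 112 with a fold of 1.5 required too; leaving out 1 array gave 114 to 175. The 158 transcripts with a changed strain difference from naive became 0 with the additive term (limma; 2815 at an unadjusted p under 0.05) and 0 with no set term (1341), 81 with prefrontal arrays alone, 101 with only the arrays compared, 95 with the replicate block, 1401 with naive replicates 1 to 4 and 2799 with naive replicates 1 and 2, and 21 to 210 without single arrays. The first pair of fits uses all naive replicates by construction; the cause of the other shifts was not tested. The 34 that differed from the caudate-putamen became 5 and 0 (623 unadjusted) under those fits, 105 without the 6 naive prefrontal arrays of replicates 1 and 2, 91 with arrays after MPTP alone, 136 with only the arrays compared, 20 with the replicate block and 6 to 41 without single arrays. Where 1 array of a group is left, it is assumed to vary like the other groups.

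Same-numbered arrays did not pair: their deviations correlated at -0.08 between TgS and FVB/N here and at -0.35 to 0.05 in the other pairs of groups, so the block, which left 193 called transcripts after MPTP, is a check only. Of 1053 alternative values for 56 called gene results, 806 kept direction and call, 243 lost the call and 4 turned direction, all with naive replicates 1 and 2: Zic1 -0.24, Fabp7 -0.11, Flt1 -0.59 and Nfil3 -0.47. Among results not called after MPTP, direction turned without single arrays for Lcn2 (-0.40 to 0.66, lowest without FVB/N array 2), Bche (-0.195 to 0.065, highest without TgS array 1) and Glo1 (-0.045 to 0.435, lowest without TgS array 2). The counts of vessel and meningeal genes under each alternative were added after seeing the data.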

Other observations

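The deposited table holds values for the naive prefrontal arrays of replicates 1 and 2 that no comparison above uses as its base. There Gdpd3, which separated TgS from FVB/N in the comparisons above, was at 5.7 and 5.63 in the libraries labelled FVB/N and 5.9 and 8.32 in those labelled TgS. Of the 215 transcripts called after MPTP, 92 were called the same way and 29 the opposite way in these arrays, where 5667 transcripts were called in all.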
